A study of Mus musculus with 32 samples.

Results

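The genes described here are Fmo1, Fmo2, Fmo4 and Fmo5, the 4 flavin monooxygenase genes chosen by their symbols in the deposited count tables of mouse liver, out of 41585 gene rows. The rule uses no measured value, although the family was picked with earlier results of these data known. All 4 passed the filter on low counts in both sexes, where 13226 genes were tested in females and 13460 in males. The tables also list Fmo6 and Fmo9 of the same family.

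The study sequenced liver RNA from C57BL/6 mice (C57Bl/6J in the methods of the study), wild-type (WT) or lacking the Cyp2b9, Cyp2b10 and Cyp2b13 genes (Cyp2b-null, made by CRISPR/Cas9), of both sexes. Mice were 10 weeks old when they were put on normal chow (ND, 6.2% fat) or on a high-fat diet with defined amino acids, deficient in choline and with 0.1% methionine (CDAHFD, 62% fat), and they stayed on it for 8 weeks. There were 8 groups of 4 libraries: ND-fed WT, CDAHFD-fed WT, ND-fed Cyp2b-null and CDAHFD-fed Cyp2b-null, in females and in males. WT mice were bought at 6 weeks of age while the null line was not described as their littermates, so genotype and source of the mice cannot be told apart. Counts of females and of males were deposited in separate tables, so sex and table cannot be told apart for a difference in level.

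Flavin monooxygenases are enzymes of the endoplasmic reticulum that hold FAD and use NADPH and oxygen to oxidise nitrogen, sulfur and other soft nucleophilic atoms in drugs, dietary amines and some endogenous compounds. FMO1 accepts many drugs and also oxidises hypotaurine to taurine. FMO2 is best known as the lung form, FMO4 is little characterised, and FMO5 does little of the classical N- and S-oxidation but inserts oxygen next to carbonyl groups (a Baeyer-Villiger reaction). Hepatocytes are the main source of these enzymes in liver.

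Libraries held 2906411 to 10166959 counts. Cyp2b13 stood at 336 to 422 CPM (counts scaled to equal library size with TMM factors) in ND-fed WT females and at 0 in ND-fed Cyp2b-null females, and Cyp2b9 at 524 to 611 CPM against 0.837 to 1.92 CPM. Xist was at 142 CPM or more in every female library and at 3.16 CPM or less in every male library. The hepatocyte gene Alb (albumin) averaged 56700 to 130000 CPM over the 8 groups. On CDAHFD, replicate 3 of the Cyp2b-null females and replicate 4 of the Cyp2b-null males do not appear in the heat maps of the study, for which no reason was found. Leaving both out changed 3 calls, all of Fmo2, which are given beside the results. That female library also stood apart in its TMM factor, 0.9891 beside 1.119 to 1.209 in the other 7 CDAHFD-fed female libraries.

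Fmo4, Fmo1 and Fmo2 lie next to each other on the minus strand of chromosome 1 (GRCm38.p6, RefSeq): Fmo4 at 162793188 to 162816072, Fmo1 at 162829561 to 162866610 and Fmo2 at 162874317 to 162898758. Prrc2c is the nearest protein-coding gene on the side of Fmo4. Fmo5 lies apart, on the plus strand of chromosome 3 at 97609938 to 97655287, where its RefSeq span overlaps that of Chd1l, a chromatin remodelling helicase. No exon of the 4 members overlapped an exon of another gene in the GENCODE vM21 annotation. Of the 50-base words in the members' transcripts, 0% were shared with another member, Fmo6 or Fmo9, 4.85% of those of Fmo1 and 0.434% of those of Fmo5 occurred in transcripts of some other gene, and 0% of those of Fmo2 and Fmo4 did, so reads of 1 member had little chance to be counted for another.

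RefSeq windows around a transcription start were found for 3 of the 4 members, Fmo1 being the one without. Only a Fmo2 window held no annotated exon of its own gene in its 250 bases before the start, so it is the window printed. Fmo2 was also the member with the largest diet change in females and the largest sex difference on ND of the 4. The sequence below is chr1:162898759-162899008 (GRCm38.p6), read 5′ to 3′ on the minus strand, and capitals would mark a motif match.
Fmo2 upstream region: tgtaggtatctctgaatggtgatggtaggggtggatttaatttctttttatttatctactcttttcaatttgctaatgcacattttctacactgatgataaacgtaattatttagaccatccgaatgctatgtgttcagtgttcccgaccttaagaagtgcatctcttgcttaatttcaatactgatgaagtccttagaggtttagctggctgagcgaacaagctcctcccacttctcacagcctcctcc
Searched on both strands, it held 0 matches to TTCNNNGAA (the STAT5 motif, in 7.02% of all 32851 windows of the same 250 bases), GCGTG (the AHR core, 28.2%), AGGTCA (a nuclear receptor half-site, 14.0%) or GTTAAT (an HNF1 core, 6.43%). These letters are not in this window, which says nothing of the factors themselves. The other Fmo2 window, with 227 of its 250 bases in exons of Fmo2, held AGGTCA at −9 to −4 from its start. The Fmo4 window held TGACCT, the same half-site on the other strand, at −75 to −70. The Fmo5 window held 0 matches.

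Fmo5 and Fmo1 were the abundant members and Fmo2 and Fmo4 the scarce ones in every group. Per kilobase of exon, Fmo5 ran from 76.7 ± 13.7 CPM per kb (SD, n = 4) in ND-fed Cyp2b-null females to 143 ± 8.88 CPM per kb in CDAHFD-fed WT males. Fmo1 followed, from 26.8 ± 1.32 CPM per kb in ND-fed WT males to 53.1 ± 4.22 CPM per kb in ND-fed Cyp2b-null females. The order Fmo5 above Fmo1, and Fmo1 above both Fmo2 and Fmo4, held in all 8 group means by gaps wider than the SDs. Fmo2 stood above Fmo4 in females, at 10.0 ± 2.98 against 3.94 ± 1.13 CPM per kb in ND-fed WT females. In males these neighbours did not differ beyond their spread, at 1.85 ± 0.777 against 1.52 ± 0.941 CPM per kb in ND-fed WT males.

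**Figure D1:**
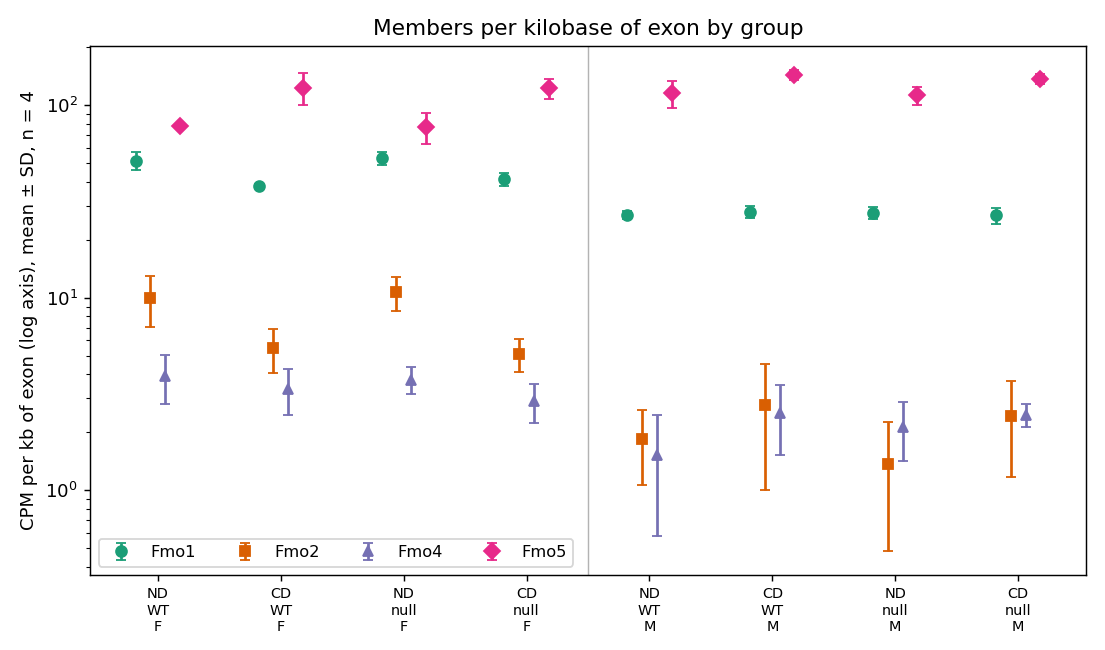
Mean CPM per kilobase of exon of the 4 members (log axis, bars are SD, n = 4 libraries) in the 8 groups, with ND or CDAHFD (CD), genotype and sex (F, M) under the axis. Fmo5 lies highest in every group, and the points of Fmo2 and Fmo4 separate in females and mingle in males.

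The first question of the design was how the members respond to CDAHFD. In females of both genotypes Fmo1 and Fmo2 fell and Fmo5 rose, so 3 of 4 members were called at an adjusted p below 0.05 in WT (24.1% of all genes tested were called there) and 3 of 4 in Cyp2b-null mice (30.8% of all genes). By direction, 13.9% of all genes were higher and 10.2% lower on CDAHFD in WT females. Tests were edgeR's quasi-likelihood test with Benjamini-Hochberg adjustment over all genes tested.

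Fmo1, the broad drug oxidase, read 280, 356, 314 and 345 CPM in the 4 ND-fed WT female libraries and 240, 239, 241 and 229 CPM in the 4 CDAHFD-fed ones. In Cyp2b-null females it read 373, 314, 334 and 320 CPM on ND and 236, 286, 252 and 263 CPM on CDAHFD. All CDAHFD libraries lay below all ND libraries in both genotypes. The log2 change was −0.42 (SE 0.117, edgeR adjusted p = 0.0109) in WT and −0.34 (SE 0.116, adjusted p = 0.0292) in Cyp2b-null females. In Cyp2b-null females the call was lost without ND-fed replicate 1 (adjusted p = 0.0908), without ND-fed replicate 3 (adjusted p = 0.0552) and without CDAHFD-fed replicate 1 (adjusted p = 0.0764, edgeR), and it held at −0.32 (adjusted p = 0.0385) without CDAHFD-fed replicate 3. It was also lost when the low-count filter was omitted (−0.39, edgeR adjusted p = 0.0796) and when ND-fed and CDAHFD-fed Cyp2b-null females alone were fitted (−0.34, adjusted p = 0.059). Scaled by library size only, without TMM factors, which raised the median of all genes by 0.317 in WT and 0.282 in Cyp2b-null females, Fmo1 was not called in either genotype (edgeR adjusted p = 0.569 and 0.6), with changes of −0.41 and −0.37 relative to those medians.

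Fmo2 showed the larger fall. It read 49.9, 74.6, 36.4 and 64.1 CPM in ND-fed WT females and 37.4, 37.3, 27.1 and 21.6 CPM in CDAHFD-fed WT females, where 1 ND library lay within the CDAHFD range. In Cyp2b-null females it read 59.6, 69.0, 67.6 and 43.0 CPM on ND and 28.4, 36.8, 24.4 and 25.2 CPM on CDAHFD, with no overlap. This gave a log2 change of −0.85 (SE 0.22, edgeR adjusted p = 0.00694) in WT and −1.02 (SE 0.219, adjusted p = 0.00134) in Cyp2b-null females. Without CDAHFD-fed Cyp2b-null replicate 3 the latter was −0.95 (adjusted p = 0.00492). Under scaling by library size only, the WT change was −0.52 (edgeR adjusted p = 0.0756).

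Fmo5, the Baeyer-Villiger enzyme, moved the other way. It read 429, 446, 445 and 456 CPM in ND-fed WT females and 716, 664, 545 and 869 CPM in CDAHFD-fed ones. In Cyp2b-null females it read 508, 415, 482 and 334 CPM on ND and 688, 643, 631 and 816 CPM on CDAHFD. Every CDAHFD library exceeded every ND library in both genotypes. In log2 terms the change was 0.68 (SE 0.152, edgeR adjusted p = 0.00219), a 1.60-fold rise, in WT and 0.70 (SE 0.152, adjusted p = 0.00146) in Cyp2b-null females, where it was 0.75 (adjusted p = 0.00108) without CDAHFD-fed replicate 3.

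Fmo4 was low, at 8.57 to 20.2 CPM over all 16 female libraries, from 28 to 103 counts. Its diet groups overlapped in both genotypes. The fitted log2 change was −0.18 (95% interval −0.65 to 0.30, edgeR adjusted p = 0.632) in WT and −0.37 (−0.84 to 0.10, adjusted p = 0.227) in Cyp2b-null females, or −0.28 (adjusted p = 0.401) without CDAHFD-fed replicate 3.

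**Figure D2:**
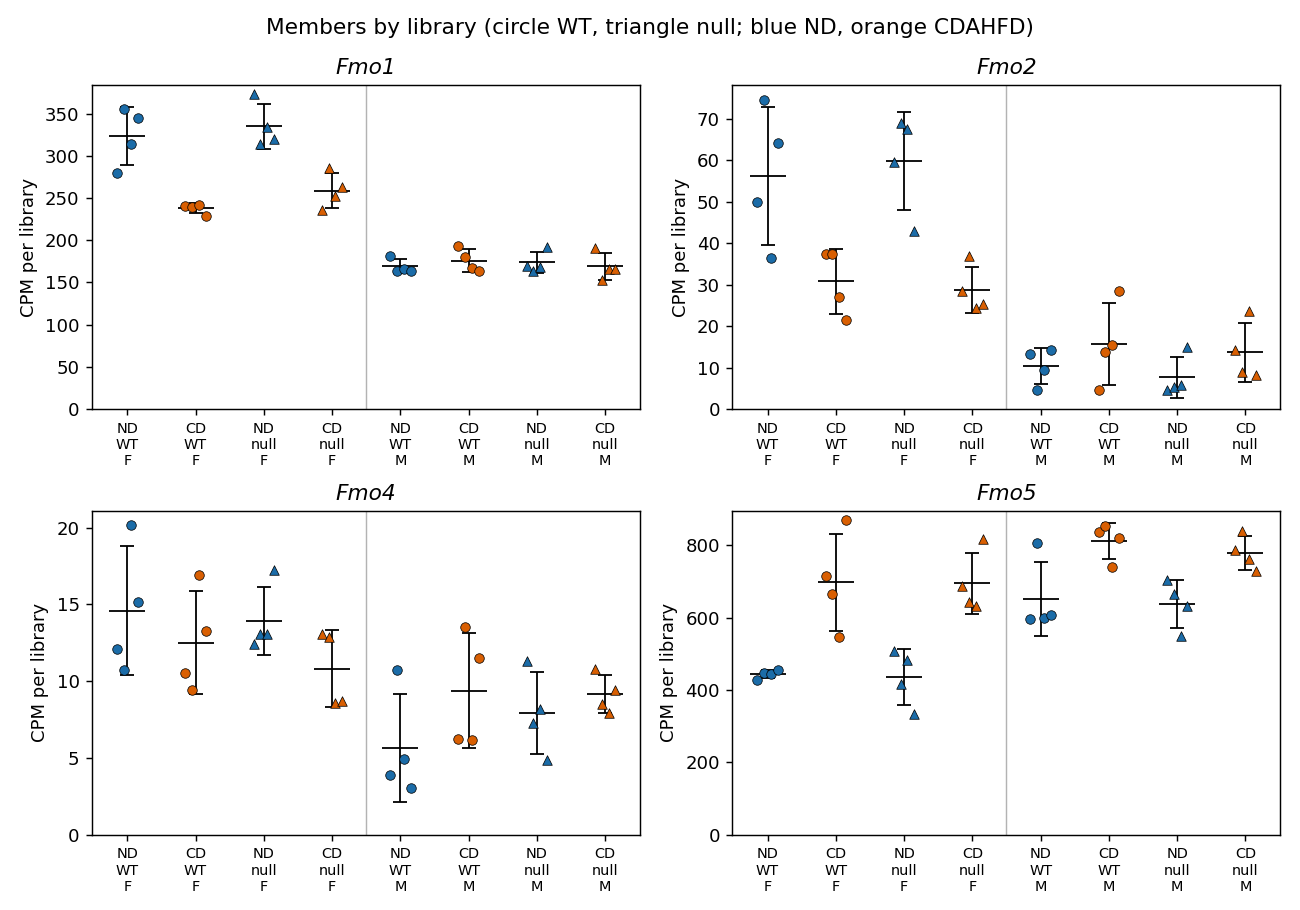
CPM of each member in all 32 libraries (points; circles WT, triangles Cyp2b-null, blue ND, orange CDAHFD) with the group mean and SD (bars, n = 4), females left and males right of the line. In females of each genotype the orange points of Fmo1 lie below the blue ones of that genotype and those of Fmo5 above them. Fmo1 in males stays between 152 and 193 CPM on either diet.

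In males no member was called by edgeR within a genotype: 0 of 4 in WT, where 33% of all genes were called, 18% of all genes being higher and 15% lower on CDAHFD, and 0 of 4 in Cyp2b-null mice, where 37.4% were. At an unadjusted p below 0.05 there was 1 member of 4, Fmo5, in each genotype, beside 5708 of 13460 genes in WT and 6105 of 13460 in Cyp2b-null males. DESeq2 called 1 member in each, beside 4519 and 5125 genes.

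Fmo5 read 597, 806, 598 and 606 CPM in ND-fed WT males and 836, 853, 739 and 820 CPM in CDAHFD-fed ones, where ND-fed replicate 2 alone lay within the CDAHFD range. In Cyp2b-null males it read 705, 665, 550 and 631 CPM on ND and 786, 839, 761 and 728 CPM on CDAHFD, without overlap. On the log2 scale the diet difference was 0.32 (SE 0.123, edgeR adjusted p = 0.0503) in WT and 0.29 (SE 0.122, adjusted p = 0.0683) in Cyp2b-null males. Leaving out ND-fed WT replicate 2 gave 0.44 (adjusted p = 0.00825) in WT and 0.29 (adjusted p = 0.0428) in Cyp2b-null males, and leaving out CDAHFD-fed WT replicate 3 gave 0.36 (edgeR adjusted p = 0.0476) in WT. Without CDAHFD-fed Cyp2b-null replicate 4 the value in that genotype was 0.32 (edgeR adjusted p = 0.0713). When the diet effect was averaged over both genotypes, a contrast added after these values were seen, the Fmo5 change in males was 0.31 (SE 0.0867, edgeR adjusted p = 0.00597), and it was the 1 member called of 4 where 48.7% of all genes were called. Fmo2 was called too without Cyp2b-null replicate 4 on CDAHFD (0.84, edgeR adjusted p = 0.0424). The same contrast called 3 of 4 members in females, against 41.4% of all genes.

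Fmo1 did not move detectably in males. It read 181, 164, 166 and 164 CPM in ND-fed and 193, 180, 167 and 164 CPM in CDAHFD-fed WT males, and 170, 164, 169 and 192 CPM against 191, 152, 166 and 166 CPM in Cyp2b-null males. The log2 change was 0.06 (95% interval −0.15 to 0.28, edgeR adjusted p = 0.675) in WT and −0.04 (−0.25 to 0.18, adjusted p = 0.81) in Cyp2b-null males, the latter at −0.03 (adjusted p = 0.862) without CDAHFD-fed replicate 4. Scaling by library size only, which raised the median of all genes by 0.371 and 0.365, gave 0.45 and 0.33 (edgeR adjusted p = 0.00185 and 0.0155), or 0.08 and −0.04 relative to those medians.

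Fmo2 in males was scarce and variable. It read 13.2, 4.63, 9.33 and 14.2 CPM in ND-fed and 4.55, 13.7, 15.6 and 28.6 CPM in CDAHFD-fed WT males, and 4.56, 5.24, 5.9 and 15.1 CPM against 14.2, 8.85, 23.7 and 8.2 CPM in Cyp2b-null males. The diet groups overlapped in both genotypes. Its log2 change was 0.62 (95% interval −0.33 to 1.56, edgeR adjusted p = 0.319) in WT and 0.91 (−0.07 to 1.88, adjusted p = 0.137) in Cyp2b-null males, where leaving out ND-fed replicate 4 gave 1.44 (adjusted p = 0.0283) and leaving out CDAHFD-fed replicate 4 gave 1.07 (edgeR adjusted p = 0.0962). Without the low-count filter Fmo2 was called in both (edgeR adjusted p = 0.0284 and 0.000401).

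Fmo4 ranged from 3.06 to 13.5 CPM over the 16 male libraries, from 14 to 102 counts, with overlapping diet groups. Its log2 change was 0.69 (95% interval −0.02 to 1.40, edgeR adjusted p = 0.129) in WT and 0.17 (−0.51 to 0.85, adjusted p = 0.727) in Cyp2b-null males, or 0.15 (adjusted p = 0.781) without CDAHFD-fed replicate 4. Without ND-fed WT replicate 2, the highest of its group at 10.8 CPM, the WT change was 1.2 (edgeR adjusted p = 0.00777). With all libraries kept, the WT change was called when the low-count filter was omitted (0.68, edgeR adjusted p = 0.0439). It was also called under scaling by library size only (1.1, edgeR adjusted p = 0.0128), where it was 0.73 relative to the median of all genes.

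The second question was whether loss of the Cyp2b genes changed the members. It did not detectably: edgeR called 0 of 4 members between genotypes on ND or on CDAHFD in either sex, 0 had an unadjusted p below 0.05, and DESeq2 called 0. The background was small too, with 0.0756% of all genes called on ND and 0.0227% on CDAHFD in females, and 0.0371% and 0.0297% in males. The intervals were narrower for the abundant members than for the scarce ones. For Fmo5 the log2 difference, Cyp2b-null minus WT, was −0.03 (95% interval −0.35 to 0.28) in ND-fed females and −0.06 (−0.31 to 0.20) in CDAHFD-fed males. On its lower side the first of these intervals reached beyond the size of both Fmo5 diet changes in males (0.32 and 0.29). The second reached beyond the size of the smaller one. For Fmo1 the difference was 0.05 (−0.19 to 0.29) and −0.06 (−0.27 to 0.16) in the same groups, and at most 0.13 (−0.11 to 0.37), in CDAHFD-fed females. For scarce members the intervals were wide: Fmo2 in ND-fed males differed by −0.45 (−1.46 to 0.56).

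The diet effect did not differ detectably between the genotypes either, with 0 of 4 members called by edgeR or DESeq2 and 0 at an unadjusted p below 0.05 in each sex, against 0% of all genes in females and 0.00743% in males. The difference in diet effect, Cyp2b-null minus WT, was 0.08 (95% interval −0.27 to 0.42) for Fmo1, −0.17 (−0.82 to 0.47) for Fmo2 and 0.02 (−0.42 to 0.47) for Fmo5 in females.

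**Figure D3:**
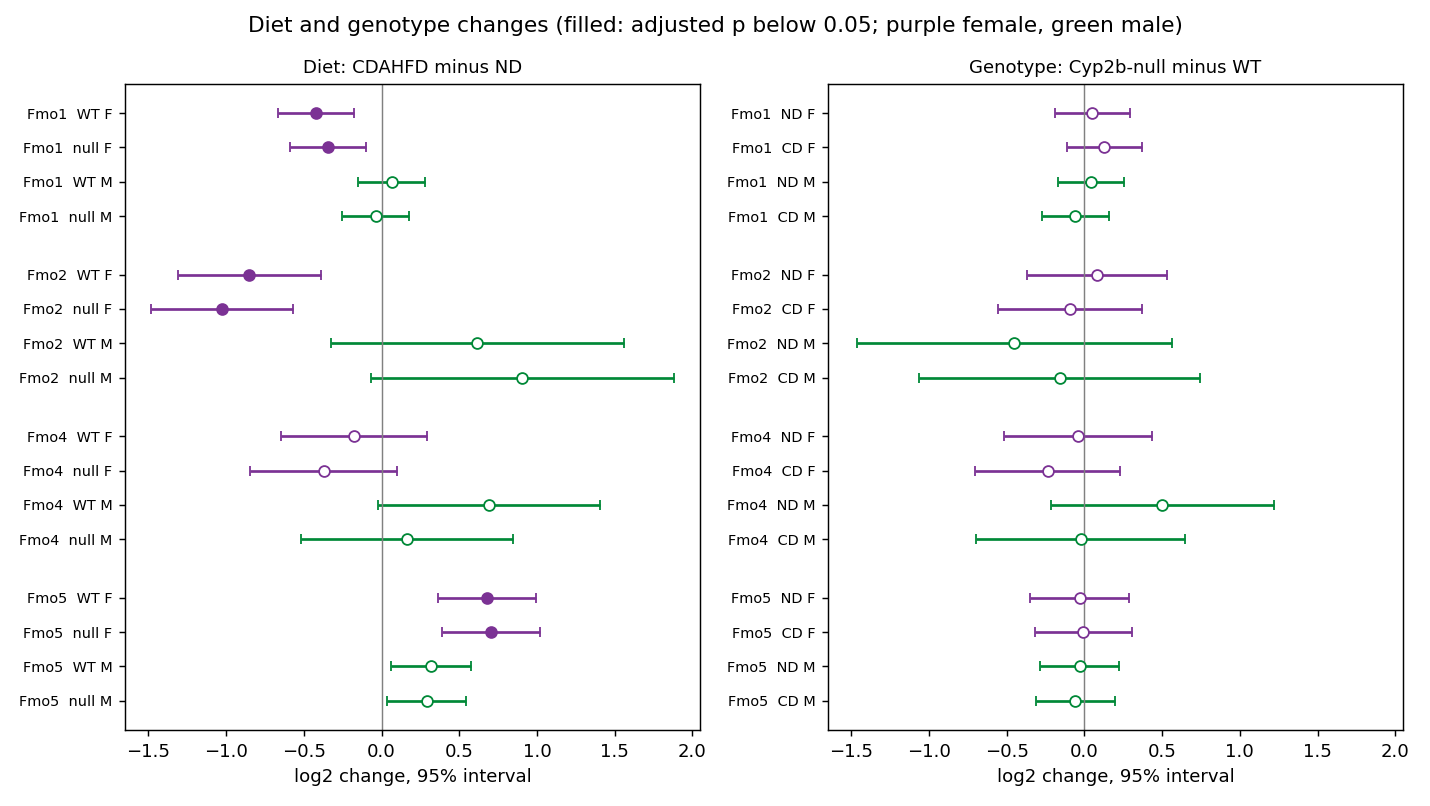
Log2 change of each member with its 95% interval for diet (left, CDAHFD minus ND) and genotype (right, Cyp2b-null minus WT), purple in females and green in males, filled where the edgeR adjusted p was below 0.05. The 6 filled points are Fmo1, Fmo2 and Fmo5 in females on the diet side, and every genotype interval includes 0.

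The third question was how the sexes differ. On ND, Fmo1, Fmo2 and Fmo4 were higher in WT females and Fmo5 in WT males, so all 4 members were called, where 17.8% of all 14020 genes tested across both sexes were. The differences, male minus female, were −0.94 for Fmo1 (SE 0.103, edgeR adjusted p = 3.1e-08), −2.46 for Fmo2 (SE 0.382, adjusted p = 2.08e-05), −1.34 for Fmo4 (SE 0.308, adjusted p = 0.00255) and 0.55 for Fmo5 (SE 0.136, adjusted p = 0.00438). As means, Fmo1 stood at 324 ± 34.4 CPM in females and 169 ± 8.29 CPM in males, and Fmo2 at 56.2 ± 16.7 and 10.4 ± 4.36 CPM (SD, n = 4). All 16 female libraries exceeded all 16 male libraries for Fmo1, whatever the diet or genotype. For Fmo2 the ND-fed sexes did not overlap, with 36.4 CPM the lowest female and 15.1 CPM the highest male value.

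In ND-fed Cyp2b-null mice 3 of 4 members were called, against 13.3% of all genes: Fmo1 at −0.95 (edgeR adjusted p = 2.74e-08), Fmo2 at −3.00 (adjusted p = 1.49e-06) and Fmo5 at 0.55 (adjusted p = 0.00549). Fmo4 was at −0.79 (95% interval −1.39 to −0.18, adjusted p = 0.0745), and it passed without ND-fed WT male replicate 2 (−0.79, edgeR adjusted p = 0.0394) and without ND-fed Cyp2b-null male replicate 1 (−1.05, adjusted p = 0.0375).

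On CDAHFD the estimates lay nearer to 0, a shift that is tested further on. In WT mice 1 of 4 members was called, against 11% of all genes: Fmo1 at −0.43 (SE 0.102, edgeR adjusted p = 0.00635), a call lost when the low-count filter was omitted (adjusted p = 0.0778). Fmo2 was at −0.97 (SE 0.367, adjusted p = 0.0831), or −1.41 (adjusted p = 0.017) without CDAHFD-fed WT male replicate 4, and it was called when the low-count filter was omitted (−0.96, edgeR adjusted p = 9.41e-06). Fmo5 was at 0.22 (95% interval −0.06 to 0.49, edgeR adjusted p = 0.318) and Fmo4 at −0.45 (−1.04 to 0.14, adjusted p = 0.341).

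In CDAHFD-fed Cyp2b-null mice 2 of 4 members were called, against 18.1% of all genes: Fmo1 at −0.62 (SE 0.102, edgeR adjusted p = 0.000136) and Fmo2 at −1.03 (SE 0.361, adjusted p = 0.0438). The Fmo2 call was lost when any 1 of 6 libraries was left out: CDAHFD-fed Cyp2b-null female replicate 1 (edgeR adjusted p = 0.062), 2 (0.118) or 3 (0.068), or male replicate 1 (0.0798), 2 (0.124) or 4 (0.131), with log2 values of −1.09 to −0.85. Without both libraries that are absent from the heat maps, Fmo1 was at −0.62 (adjusted p = 0.00183) and Fmo2 at −0.94 (edgeR adjusted p = 0.167).

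**Figure D4:**
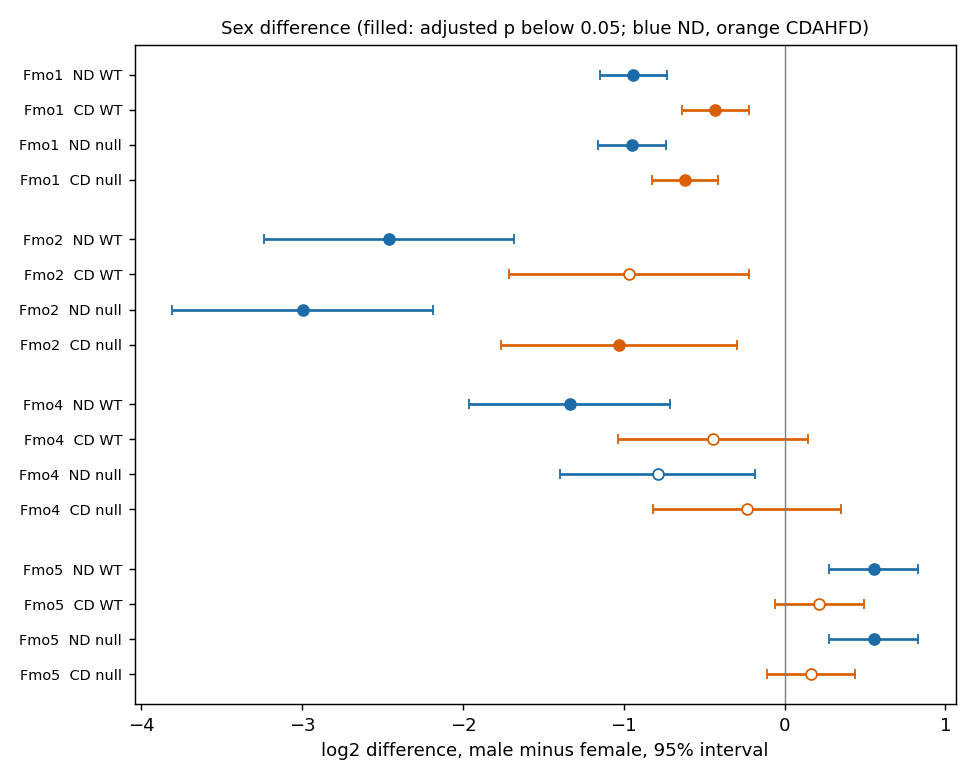
Log2 difference of each member, male minus female, with its 95% interval, on ND (blue) and on CDAHFD (orange) in WT and Cyp2b-null (null) mice, filled where the edgeR adjusted p was below 0.05. Each orange point of a member lies nearer to 0 than the blue one of the same genotype, and Fmo5 is the member on the male side.

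Whether the diet effects themselves differed by sex was tested directly, since a change called in females and not in males does not show a difference. In WT mice edgeR called 0 of 4 members, against 0.97% of all genes, although 3 had an unadjusted p below 0.05, beside 1439 of 14020 genes, and DESeq2 called 1, beside 220 of 12389 genes. The differences, male minus female, were 0.51 for Fmo1 (SE 0.144, edgeR adjusted p = 0.0882), 1.49 for Fmo2 (SE 0.526, adjusted p = 0.217), 0.89 for Fmo4 (adjusted p = 0.462) and −0.34 for Fmo5 (adjusted p = 0.593). For Fmo2 the value was 1.79 (edgeR adjusted p = 0.0449) without CDAHFD-fed WT male replicate 1. It was also called when the low-count filter was omitted (1.47, edgeR adjusted p = 2.84e-06). The member that DESeq2 called was Fmo1, at 0.49 (DESeq2 adjusted p = 0.0147).

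In Cyp2b-null mice 1 of 4 members was called, against 3.4% of all genes. Fmo2 differed by 1.97 (SE 0.535, edgeR adjusted p = 0.0329), falling on CDAHFD in females and reading higher, without a call, in males. The call was lost when any 1 of 8 libraries was left out: ND-fed Cyp2b-null female replicate 1, 2 or 3 (edgeR adjusted p = 0.0522, 0.0669 and 0.0506), CDAHFD-fed Cyp2b-null female replicate 3 (0.0625), ND-fed Cyp2b-null male replicate 1, 2 or 3 (0.0725, 0.0762 and 0.0691) or CDAHFD-fed Cyp2b-null male replicate 3 (0.142), with values of 1.53 to 1.97. Without both libraries absent from the heat maps it was 2.07 (adjusted p = 0.0517). Fmo1 differed by 0.33 (SE 0.144, edgeR adjusted p = 0.201).

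Fmo6 never exceeded 1 count in a library, and Fmo9 had 0 counts in all 32.

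Summed levels of cell type markers moved with diet in these bulk samples, where fewer cells of a type and less RNA per cell cannot be told apart. The summed level of 7 hepatocyte markers was 130000 to 191000 CPM in ND-fed and 76800 to 105000 CPM in CDAHFD-fed WT females, with 5 of 7 lower and none higher. In males it was 126000 to 140000 CPM and 63800 to 109000 CPM, with 6 of 7 lower. The sum of 7 macrophage markers was 377 to 629 CPM against 880 to 1070 CPM in WT females (5 of 7 higher) and 163 to 327 CPM against 654 to 1300 CPM in WT males (6 of 7 higher). That of 8 stellate cell markers was 248 to 355 CPM against 539 to 746 CPM in WT females and 150 to 203 CPM against 468 to 687 CPM in WT males, with 5 of 8 higher in each sex. Of 6 endothelial markers 2 were lower and none higher in WT females, and 1 was lower and 1 higher in WT males. Of 5 cholangiocyte markers 2 were higher in each sex, and of the lymphocyte markers 1 of 3 tested in females and 1 of 1 in males was higher. No marker of the hepatocyte, macrophage and stellate cell lists was at 0 in all libraries of a group, and their part in the changes of Fmo1, Fmo2 and Fmo5 was not tested.

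The neighbours of the members were examined for the same diet contrast. Chd1l, whose span overlaps Fmo5, also rose on CDAHFD, by 0.74 in WT females (edgeR adjusted p = 0.00726) and 1.05 in WT males (adjusted p = 5e-05), at a lower level of 9.21 ± 0.668 CPM in ND-fed WT females. Prkab2, a regulatory subunit of AMP-activated kinase on the other side of Fmo5, was called in Cyp2b-null females at 1.51 (edgeR adjusted p = 0.0112) and not in WT females at 0.75 (adjusted p = 0.188). A call in Cyp2b-null females alone does not show that the genotypes differ, and 0 of 13226 genes were called for the diet by genotype interaction in females. Nor does the lack of such a call show that they are equal. Prrc2c, beside Fmo4, was not called for diet in WT females (−0.04, edgeR adjusted p = 0.925) or WT males (−0.37, adjusted p = 0.105). Whether the counting used strand is not stated, so a part of Chd1l reads in the Fmo5 count was not tested.

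The supply of the cofactors and of the FMO1 substrate hypotaurine was described next, in lists chosen with earlier results of these data known. Of 4 tested genes for making, conjugating or transporting taurine, 3 were lower on CDAHFD in WT of both sexes and none was higher. The gene not called in either sex was that of the transporter. The list median log2 change was −0.88 in females beside −0.002 over all genes, and −0.94 beside −0.02 in males. Csad, which makes hypotaurine from cysteine sulfinate, fell by 2.09 in females and by 2.99 in males (edgeR adjusted p = 7.26e-05 and 1.17e-11). Cdo1, which makes cysteine sulfinate from cysteine, fell by 1.16 and by 0.91 on the log2 scale (edgeR adjusted p = 3.17e-06 and 6.43e-05).

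Of 4 tested genes of riboflavin uptake and FAD synthesis, 1 was higher and none lower on CDAHFD in WT of each sex. This was Slc52a2, a riboflavin transporter, at 0.77 in WT females and 0.62 in WT males (edgeR adjusted p = 0.0209 and 0.0306). Of 6 genes for enzymes that make NADPH, 1 was higher and 3 were lower in WT females, and 2 were higher and 3 lower in WT males. Me1, malic enzyme, fell by 2.64 and by 2.98, and Aldh1l1, a folate dehydrogenase, fell by 1.59 and by 1.08 (edgeR adjusted p from 1.4e-09 to 5.26e-05). G6pdx, of the pentose phosphate pathway, rose by 0.84 and 1.10 (edgeR adjusted p = 0.00332 and 0.000686).

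Of 10 genes for other oxidoreductases, 5 were lower and none higher in WT females, and 6 were lower and 2 higher in WT males. The monoamine oxidase Maoa fell by 1.32 in WT females and by 0.84 in WT males (edgeR adjusted p = 3.94e-05 and 0.00203), and Maob fell by 0.72 and by 0.64 (adjusted p = 0.000375 and 0.000238). Of 12 genes for transcription factors of liver, 1 was higher and 3 lower in WT females, and 1 higher and 4 lower in WT males. Hnf4a, a master factor of hepatocytes, fell by 0.58 and by 0.74 (edgeR adjusted p = 0.0114 and 7.12e-05), and Nfe2l2, which encodes NRF2, rose by 0.44 and 0.71 (adjusted p = 0.0101 and 0.00204).

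Likeness to other genes was measured as Pearson's r of log2(CPM + 1) over all 32 libraries, which share the steps between diets and sexes, so r is a description only. Fmo1 was most like Slc22a26, a transporter of the organic anion family (r = 0.958), and the sulfotransferases Sult2a2 (0.952) and Sult2a1 (0.944). Within the 16 female libraries r was 0.88, 0.82 and 0.864, and within the 16 male libraries 0.341, −0.321 and −0.0579. These genes were near the floor in males. In CDAHFD-fed WT males, their highest male group, Slc22a26, Sult2a2 and Sult2a1 averaged 6.11, 0.547 and 0.303 CPM. At such levels r within males cannot show whether the likeness holds there. Sult2a1 stood at 417 ± 167 CPM in ND-fed WT females and at 0 in ND-fed WT males.

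Among the genes most like Fmo2 were the pseudogene-like locus Gm6135 (r = 0.886) and Ctsc, which encodes the protease cathepsin C (0.885), with r of 0.646 and 0.704 within females and 0.673 and 0.606 within males. Gm6135 was near the floor in males, with group means of 0.87 to 2.63 CPM, so its r there rests on few counts. Fmo4 was most like Cd38 (0.775), Pigh (0.736) and Gbp7 (0.714), all weaker than the first likeness of the other members. Within females these were 0.473, −0.0178 and 0.235, and within males 0.634, 0.75 and 0.57. Pigh was low in males too, with group means of 1.6 to 3.35 CPM. Fmo5 was most like Tmem120a (0.893), the water channel gene Aqp4 (0.888) and Atp9a (0.871). For Fmo5 the likeness was present within each sex, with r of 0.886, 0.896 and 0.809 in females and 0.708, 0.757 and 0.869 in males. Aqp4 stood at 0.958 ± 0.434 CPM in ND-fed and 18.5 ± 3.77 CPM in CDAHFD-fed WT females.

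Among the members themselves, Fmo1 and Fmo2 had r = 0.858 over 32 libraries, 0.84 in females and 0.0431 in males. Fmo1 and Fmo5 ran opposite, at −0.697 over all libraries and −0.734 in females, and at 0.00506 in males. Around the group means, which removes the steps between diets, genotypes and sexes, r was 0.179 for Fmo1 with Fmo2 and 0.0771 for Fmo1 with Fmo5. It was −0.339 for Fmo2 with Fmo4, beside 0.498 over all libraries, and between −0.189 and 0.134 for the other 3 pairs. Fmo4 and Fmo5 had r = 0.656 within males and −0.539 within females.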

How the data were processed

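The authors isolated RNA with TRIzol (RNA integrity number above 8), made libraries with a NEB Next Ultra kit and sequenced paired ends on an Illumina NovaSeq instrument. Per the study's methods and the submitters' processing notes, reads were trimmed with Trimmomatic, checked with FastQC, aligned with GSNAP to GRCm38.p6 and counted with featureCounts of Subread, and edgeR was used. Versions, strand setting and treatment of reads with several hits are not given in the sources used here. The values used here are the deposited raw counts per gene, 1 table for each sex with 16 libraries, not normalized by the authors.

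From these counts, edgeR 4.0.16 in R 4.3.3 (limma 3.58.1) was run with TMM factors, filterByExpr (minimum count 10, total 15) and the quasi-likelihood test, in 1 fit for each sex with its 4 groups and 1 fit of all 8 groups for sex. Calls were made at a Benjamini-Hochberg adjusted p below 0.05 over all genes tested. SEs are the log2 change divided by the square root of F. CPM used TMM factors over 32 libraries, and CPM per kb the union of GENCODE vM21 exons. The fit was tested on simulated data. Libraries carry replicate numbers 1 to 4 per group. Nothing states that they come from mice paired across groups, and 32 same-numbered pairs had correlations of −0.205 to 0.305, 6 of them above 0.1, so no pairing was used. Labels do not say that each library is 1 animal, so p-values measure the spread between these samples. No libraries were identical (highest r 0.9871).

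The members and gene lists were chosen with earlier results of these data known. Genes were named by fixed rules: all members, Fmo6 and Fmo9, flanking genes, the 3 most alike genes per member, and up to 2 genes per direction and list, by size, among those called alike in WT of both sexes. Of the genes these rules name, 1 is not reported here. Chd1l was named after its overlap was seen. Alternatives were DESeq2 1.42.0, RLE factors, library size only, no filter, a filter of 1 CPM in 4 libraries, only the groups compared, a replicate block, the libraries of the study's heat maps, and leaving out each library. Figures were drawn with matplotlib.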

Additional observations from a re-analysis of the deposited data

Results flagged for a closer look

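For 4 of 32 sets of 4 libraries (4 members in 8 groups), 1 library stood apart from the other 3, with a gap over 0.829 of the range. Chance gives about 1 in 20 such sets. Fmo5 was at 806 CPM in ND-fed WT male replicate 2 and at 597 to 606 CPM in the others of that group. Fmo1 was at 181 CPM in ND-fed WT male replicate 1 beside 164 to 166 CPM. Fmo2 was at 15.1 CPM in ND-fed Cyp2b-null male replicate 4 beside 4.56 to 5.9 CPM. Fmo4 was at 17.2 CPM in ND-fed Cyp2b-null female replicate 4 beside 12.4 to 13.1 CPM.

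The diet effect was called different between the sexes (male minus female, log2) for Fmo2 in Cyp2b-null mice, at 1.97 (edgeR adjusted p = 0.0329). That call was lost when any of 8 libraries was left out. It was also lost with the libraries of the study's heat maps (2.07, edgeR adjusted p = 0.0517).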

How the results depend on the processing

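Of 72 values (4 members in 18 comparisons), those that kept direction and call numbered 72 with a filter of 1 CPM in 4 libraries, 70 with RLE factors, 67 with DESeq2, 66 with the libraries of the study's heat maps, 64 with a replicate block, 63 without the low-count filter and 54 with library size only. With only the groups compared, 53 kept them and 3 did not. Leaving out 1 library at a time, 1467 kept them, 15 gained a call, 17 lost one and 37, all of uncalled values, changed sign. Scaling by library size only changed most. It moved the median log2 diet change of all genes to 0.317 in WT and 0.282 in Cyp2b-null females, and to 0.371 and 0.365 in males. Members called for diet then numbered 1 in WT females, 3 in WT males, 3 in Cyp2b-null males and 4 for the averaged effect in males, and 1 for sex in CDAHFD-fed Cyp2b-null mice. The reported fit called 24.1%, 33%, 37.4%, 48.7% and 18.1% of all genes in these comparisons, in the same order. Shares under the alternative settings are not given for each count here and below, so these member counts are not read as a result about the members. Fmo1 in WT females was at −0.09 (edgeR adjusted p = 0.569), which is −0.41 relative to that median, and Fmo5 in WT males at 0.71, or 0.34 relative to it. Values uncalled in the reported fit changed sign: Fmo4 in WT females (0.14) and averaged (0.0137), Fmo1 in Cyp2b-null males (0.329), the Fmo5 genotype difference in ND-fed males (0.0129) and its interaction in females (−0.0377).

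Without the low-count filter, members called were 2 for diet in WT males, 1 in Cyp2b-null males, 2 averaged in males and 1 for the sex difference of the diet effect in WT. With DESeq2 they were 1 for diet in WT males, 1 in Cyp2b-null males, 1 for sex in CDAHFD-fed Cyp2b-null mice and 1 for the sex difference of the diet effect in WT. With RLE factors 1 was called for diet in WT males, and with only the groups compared 1 in Cyp2b-null males. The Fmo5 genotype difference in CDAHFD-fed females, near 0 in all fits, was 0.00217 with DESeq2 and 0.00219 with RLE. With the libraries of the study's heat maps, members called were 2 for the averaged diet effect in males, 1 for sex in CDAHFD-fed Cyp2b-null mice and 0 for the sex difference of the diet effect in Cyp2b-null mice, and 3 uncalled values changed sign: Fmo5 genotype in CDAHFD-fed females (0.0437), Fmo2 genotype in CDAHFD-fed males (0.00205) and the Fmo5 interaction in males (0.000682). The cause was not tested.

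Replicate numbers are shared between groups by number only, and 6 of 32 comparisons had a library correlate best with its own number. With a replicate block, members called were 1 for diet in WT males, 2 for the averaged diet effect in males, and for sex 2 in ND-fed WT, 2 in ND-fed Cyp2b-null, 0 in CDAHFD-fed WT and 0 in CDAHFD-fed Cyp2b-null mice. For sex, this fit compared the fitted level of replicate 1 in males with that in females, because its block terms were coded within each sex. Its sex values, also in the count above, therefore do not test the mean difference between the sexes. With that limit, the sex calls lost (edgeR adjusted p) were Fmo4 (0.0569) and Fmo5 (0.0801) in ND-fed WT, Fmo5 (0.0761) in ND-fed Cyp2b-null, Fmo1 (0.301) in CDAHFD-fed WT, and Fmo1 (0.0607) and Fmo2 (0.0866) in CDAHFD-fed Cyp2b-null mice. Under the same limit, calls for sex over all genes went from 2496 to 1023, 1859 to 903, 1546 to 217 and 2539 to 327 in the same order of groups.

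Leaving out 1 library at a time, members called ranged from 0 to 2 for diet in WT males, 0 to 1 in Cyp2b-null males, 1 to 2 averaged in males, 1 to 2 for sex in CDAHFD-fed WT, 1 to 2 in CDAHFD-fed Cyp2b-null mice, and 0 to 1 for the sex difference of the diet effect in either genotype. Uncalled values near 0 changed sign in these ranges. The genotype difference on ND in females ran from −0.00798 to 0.105 for Fmo1, −0.072 to 0.241 for Fmo2, −0.174 to 0.133 for Fmo4 and −0.112 to 0.0774 for Fmo5. On CDAHFD in females it ran from −0.242 to 0.0132 for Fmo2 and −0.108 to 0.119 for Fmo5. In males it ran on ND from −0.0101 to 0.0794 for Fmo1 and −0.0825 to 0.0871 for Fmo5, and on CDAHFD from −0.59 to 0.291 for Fmo2 and −0.194 to 0.197 for Fmo4. The interaction ran from −0.084 to 0.15 for Fmo5 in females, and in males from −0.142 to 0.822 for Fmo2 and −0.148 to 0.0221 for Fmo5. The diet change in Cyp2b-null males ran from −0.102 to 0.0127 for Fmo1 and −0.00211 to 0.419 for Fmo4, and averaged in males from −0.0192 to 0.0375 for Fmo1.

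Counts of all genes called moved by over 1.5 times for the genotype comparisons, from 10 to 122 on ND and 3 to 69 on CDAHFD in females and from 5 to 170 and 4 to 51 in males without the filter, and with DESeq2 to 23 and 5 in females and 72 in ND-fed males, with 2 to 8 in males under the other settings that keep all libraries or those of the heat maps. For the sex difference of the diet effect they moved from 136 to 469 in WT and from 477 to 923 in Cyp2b-null mice without the filter, to 220 (WT) with DESeq2, to 79 (WT) with only the groups compared and to 245 (Cyp2b-null) with the libraries of the heat maps. For sex they moved to 867 in CDAHFD-fed Cyp2b-null mice with the heat map libraries, and to 1534 in ND-fed WT and 1533 in CDAHFD-fed Cyp2b-null mice with only the groups compared. Leaving out 1 library gave 1579 (without ND-fed WT male replicate 2) to 2912 for sex in ND-fed WT, 698 (without CDAHFD-fed WT male replicate 2) to 1980 in CDAHFD-fed WT, 1278 to 2190 in ND-fed Cyp2b-null and 1275 (without CDAHFD-fed Cyp2b-null female replicate 3) to 2610 in CDAHFD-fed Cyp2b-null mice, 84 to 261 for the sex difference of the diet effect in WT and 238 to 578 in Cyp2b-null mice, and 2 to 29 for genotype in ND-fed males. Fmo2 in males and Fmo4 rested on as few as 23 and 14 counts in a library.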
